A study of Drosophila melanogaster with 12 samples.

Results

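Voltage-gated channel genes encode the pore proteins that shape electrical signals, and 10 of them were followed here among the 17492 genes of the deposited mRNA and pre-mRNA tables: para, cac, Ca-alpha1D, Ca-alpha1T, Sh, Shab, Shal, Shaw, slo and eag. They were chosen by gene symbol, as channel genes that are mostly long. All 10 passed the filter of a mean of at least 10 reads for mRNA, and 6 of 10 had finite intronic values and passed it for pre-mRNA. RNA came from larval carcasses, the body wall left after dissection, of stationary Drosophila melanogaster of the third instar. The Nxt1 larvae were trans-heterozygous for Nxt1 mutations, with strain given as yw, and the WT larvae were wildtype of strain w1118. The labels do not name the Nxt1 alleles, and strain cannot be told apart from genotype in any comparison. Total RNA was mock-treated or digested with RNase R, an exonuclease that spares circular RNA, with 3 libraries for each genotype and treatment. The labels mark the libraries M and R and do not spell the letters out. Values of mRNA and pre-mRNA come from the M libraries, and circular RNA values from the R libraries.

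In fly larvae, action potentials of neurons are carried by sodium channels, while voltage-dependent currents of body wall muscle are carried by calcium and potassium channels. Many channel genes are transcribed through long introns, which are removed by splicing. Nxt1 is a cofactor of the receptor that carries mRNA out of the nucleus, and the study asked how its loss affects the balance of pre-mRNA, mRNA and circular RNA. Reads in introns are read here as a measure of RNA that is transcribed and not yet spliced or decayed, and reads in exons as mRNA.

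The M libraries held 19830526 to 32868851 mRNA reads in Nxt1 and 30193498 to 32305641 in WT, and 664555 to 1307520 pre-mRNA reads in Nxt1 and 1237133 to 1455766 in WT, with Nxt1 replicate 1 the shallowest. WT replicate 3 stood apart from the other WT libraries: chi-square per degree of freedom over genes was 250.0 and 290.4 against them in mRNA, where the other pairs of a genotype were at 57.96 to 65.4, and 45.0 and 48.7 in pre-mRNA, where the others were at 5.85 to 15.4. The calls of para mRNA, Ca-alpha1D intronic RNA and the muscle markers are given with and without that library. Nxt1 itself had 93, 165 and 147 reads in the Nxt1 libraries and 346, 262 and 303 reads in the WT libraries, a fold of 0.637 after scaling (limma with Benjamini-Hochberg adjustment, adjusted p = 0.0175). The white gene (w), which is deleted in w1118, had 59, 114 and 101 reads in the Nxt1 libraries and 0 in each WT library. Values below are library-scaled reads, which are whole reads recovered from the deposited FPKM and divided by the authors' library factor. They compare libraries within a gene and not levels between genes. A gene was called when its adjusted p in limma was under 0.05, with p-values that measure the spread between these samples, since separate pools of larvae are not stated.

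The mRNA of 1 of the 10 genes fell in Nxt1 carcasses and 0 rose. The gene that fell was Ca-alpha1T (FBgn0264386), which encodes the pore of the T-type, low-voltage-activated calcium channel. It was at 0.396 of WT, with a 95% confidence interval of 0.332 to 0.472. Of all 10442 genes tested, 21.4% were called, 12.0% as rises and 9.44% as falls, so 1 fall in 10 is near the background. At an unadjusted p under 0.05, 3 of the 10 genes fell (Ca-alpha1T, para and Shal) and 0 rose, against 17.5% and 19.0% of all genes tested, and 0 rose with edgeR and DESeq2. The median log2 fold was -0.25 over the 10 genes and -0.0024 over all genes tested, and 8 of the 10 folds were below 0. Since these are bulk samples, fewer cells of a type and less RNA per cell cannot be told apart.

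**Figure D1:**
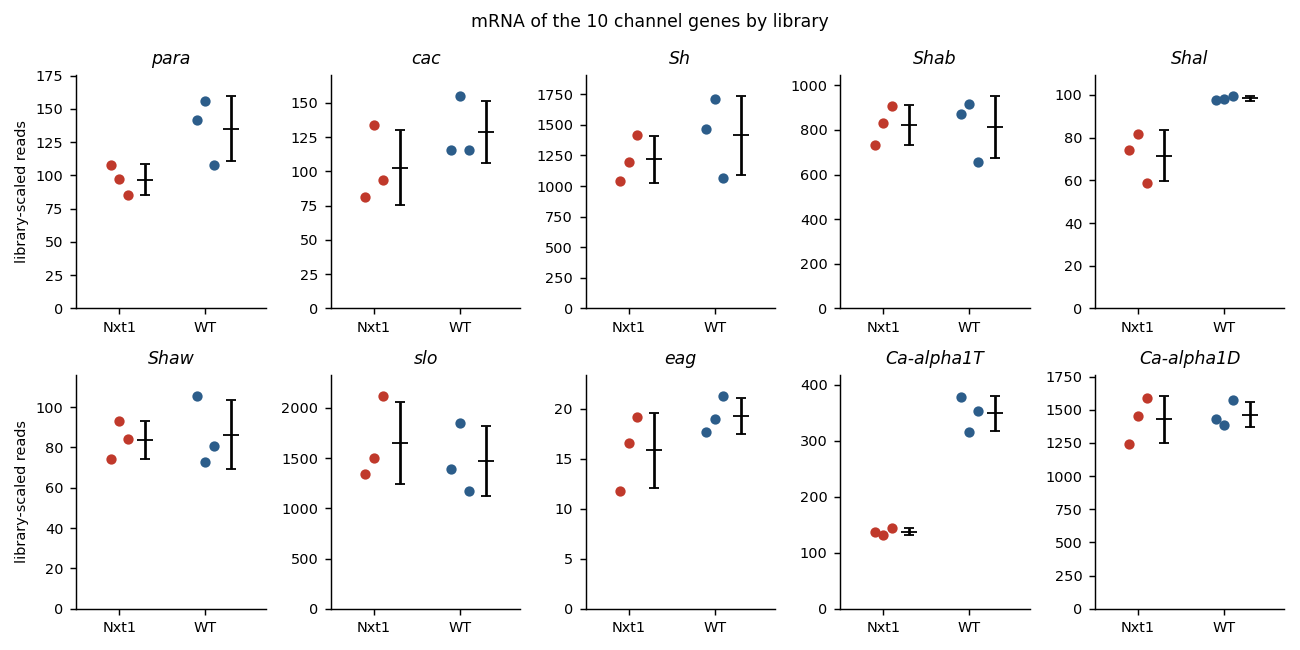
mRNA of the 10 channel genes as library-scaled reads (y axis, from 0, scaled by gene) in 3 Nxt1 libraries (red) and 3 WT libraries (blue), with the mean and SD beside the points. The Ca-alpha1T groups lie far apart, at 131 to 144 in Nxt1 and 316 to 377 in WT, those of para and Shal lie apart by less, and the groups of the other 7 genes overlap.

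Among the calcium channel genes, the others did not follow Ca-alpha1T. Ca-alpha1T mRNA was at 137, 131 and 144 library-scaled reads in the Nxt1 libraries and at 377, 316 and 352 in the WT libraries. The highest Nxt1 value was far below the lowest WT value, and the Nxt1 libraries lay close together. The means were 137 ± 6.10 in Nxt1 and 349 ± 30.8 in WT (SD, n = 3 each), a log2 fold of -1.34 (SE 0.106, limma adjusted p = 0.00126). In the exact permutation test, 2-sided, p was 0.1, which is the lowest value possible with 3 against 3 libraries. The call was kept in all 18 alternatives run, each left-out library included, with log2 folds of -1.71 to -0.49. The smallest of these came from FPKM + 1 with lengths put back in order, where a level under 1 FPKM is damped by the added 1.

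Ca-alpha1D (FBgn0001991) encodes the L-type calcium channel pore, which carries much of the calcium current of larval body wall muscle. Its mRNA was at 1242, 1451 and 1591 library-scaled reads in Nxt1 and at 1433, 1389 and 1572 in WT. The groups overlapped, with a log2 fold of -0.04 and a 95% confidence interval of -0.31 to 0.22 (limma adjusted p = 0.813), and its sign turned without Nxt1 replicate 1 (0.055) or WT replicate 3 (0.010). The presynaptic calcium channel gene cac (FBgn0263111), whose channel triggers transmitter release, was at 81.0, 134 and 94.1 in Nxt1 and at 116, 155 and 116 in WT. These groups overlapped as well (log2 fold -0.34, 95% confidence interval -0.88 to 0.20, limma adjusted p = 0.314). Set against the mean log2 value of the other 9 genes in the same library, Ca-alpha1T was at -0.62, -0.92 and -0.78 in Nxt1 and at 0.47, 0.13 and 0.54 in WT. Ca-alpha1T was singled out after its values were seen, so no test is given for that difference of -1.15.

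The sodium channel gene para (FBgn0285944) encodes the main voltage-gated sodium channel of fly neurons. It had 108, 97.3 and 85.0 library-scaled mRNA reads in Nxt1 and 142, 156 and 108 in WT. The highest Nxt1 library, at 108.02, and the lowest WT library, at 108.09, were almost level, so the groups were apart by very little. Its log2 fold of -0.47 (SE 0.179) missed the threshold (limma adjusted p = 0.111). Without WT replicate 3, the lowest WT library, it passed (log2 fold -0.62, limma adjusted p = 0.0319).

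None of the 6 potassium channel genes was called in mRNA, by limma, edgeR or DESeq2, and 1 of them, Shal, had an unadjusted p under 0.05, which 17.5% of all genes tested had as falls. Shal (FBgn0005564), a pore gene of fast inactivating A-type current in neurons, was at 74.3, 81.8 and 58.7 library-scaled reads in Nxt1 and at 97.4, 98.3 and 99.6 in WT. All 3 Nxt1 libraries were below the WT libraries, which lay close together, and the log2 fold of -0.47 (SE 0.161) missed the threshold (limma adjusted p = 0.0852). Groups not overlapping with Nxt1 below were found in 3 of 10 genes (Ca-alpha1T, para and Shal), against 20.4% of all genes tested.

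Shaker, Sh (FBgn0003380), a pore gene of A-type channels in fly muscle and axons, was at 1038, 1198 and 1420 in Nxt1 and at 1462, 1711 and 1070 in WT. Its groups overlapped, with the lowest WT value in replicate 3 (log2 fold -0.20, limma adjusted p = 0.4996). The calcium-activated potassium channel gene slo (FBgn0003429), whose channels have large conductance, was at 1345, 1498 and 2117 in Nxt1 and at 1389, 1854 and 1173 in WT. Its groups overlapped too, with a log2 fold of 0.17 (limma adjusted p = 0.627) and a sign that turned without Nxt1 replicate 3 (-0.026). The delayed rectifier gene Shab (FBgn0262593) ranged from 731 to 907 in Nxt1 and from 654 to 914 in WT. Shaw (FBgn0003386), whose channels conduct a potassium current that does not inactivate, ranged from 74.3 to 93.2 in Nxt1 and from 72.7 to 105 in WT. Both had log2 folds near 0, at 0.03 for Shab and -0.03 for Shaw (limma adjusted p = 0.917 and 0.919). The ether-a-go-go gene eag (FBgn0000535), pore of a slowly activating potassium channel, rested on 7, 16 and 19 reads in Nxt1 and on 22, 23 and 25 reads in WT. At that depth its scaled groups overlapped, with a wide 95% confidence interval of -0.99 to 0.41 for the log2 fold.

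Levels can be set beside each other between genes only per length, and 8 of the 10 genes have an exonic length that the deposited values give once the lengths are put back in order. On that scale of FPKM, slo was at 6.23 ± 1.54 in Nxt1 and 5.55 ± 1.31 in WT. Ca-alpha1D was at 5.05 ± 0.622 in Nxt1 and 5.18 ± 0.338 in WT, and Sh at 3.34 ± 0.526 in Nxt1 and 3.87 ± 0.885 in WT (SD, n = 3 each). These 3 genes led the order in both genotypes, with ranges that overlapped between slo and Ca-alpha1D, and between slo and Sh in WT only. The other 5 genes were below 1 FPKM in every library. Ca-alpha1T was at 0.352 ± 0.0156 in Nxt1 and 0.893 ± 0.0788 in WT, Shal at 0.583 ± 0.0960 in Nxt1 and 0.801 ± 0.00897 in WT, and Shaw at 0.613 ± 0.0692 in Nxt1 and 0.632 ± 0.125 in WT. In Nxt1, Shaw and Shal overlapped and both lay above Ca-alpha1T, whereas in WT Ca-alpha1T stood first of these 3 genes, with a range that overlapped that of Shal. The lowest levels were those of para, at 0.207 ± 0.0247 in Nxt1 and 0.290 ± 0.0527 in WT, and of eag, at 0.0557 ± 0.0132 in Nxt1 and 0.0678 ± 0.00635 in WT. The sodium channel gene para was thus more than 10-fold below the calcium channel gene Ca-alpha1D in both genotypes. Which cells of the carcass these levels came from was not tested.

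Intronic RNA moved in opposite directions in the 2 genes that were called, of 6 tested: slo rose to 1.68 of WT, with a 95% confidence interval of 1.26 to 2.25, and Ca-alpha1T fell to 0.442 of WT. Of all 2489 genes tested for pre-mRNA, 7.87% were called, 4.9% as rises and 2.97% as falls. The other 4 genes, Sh, Ca-alpha1D, cac and Shab, had folds above 0 that missed the threshold. The median log2 fold was 0.39 over the 6 genes and 0.00084 over all genes tested. The same calls, 1 rise and 1 fall, were made by edgeR and by DESeq2. The intronic values of para, Shal, Shaw and eag are infinite in the deposited table, in every library with a read, and were not used here. In these 4 rows the implied mRNA length equals the whole span of the gene at that rank once IDs are sorted. That span is 1549 bases for the para row, so no intron length is left there. The 4 genes do have introns of their own, with 62492 bases in para, 13621 in Shal, 6404 in Shaw and 45010 in eag. A read was present in all 6 libraries for para, Shal and Shaw, and in all but Nxt1 replicate 1 for eag.

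**Figure D2:**
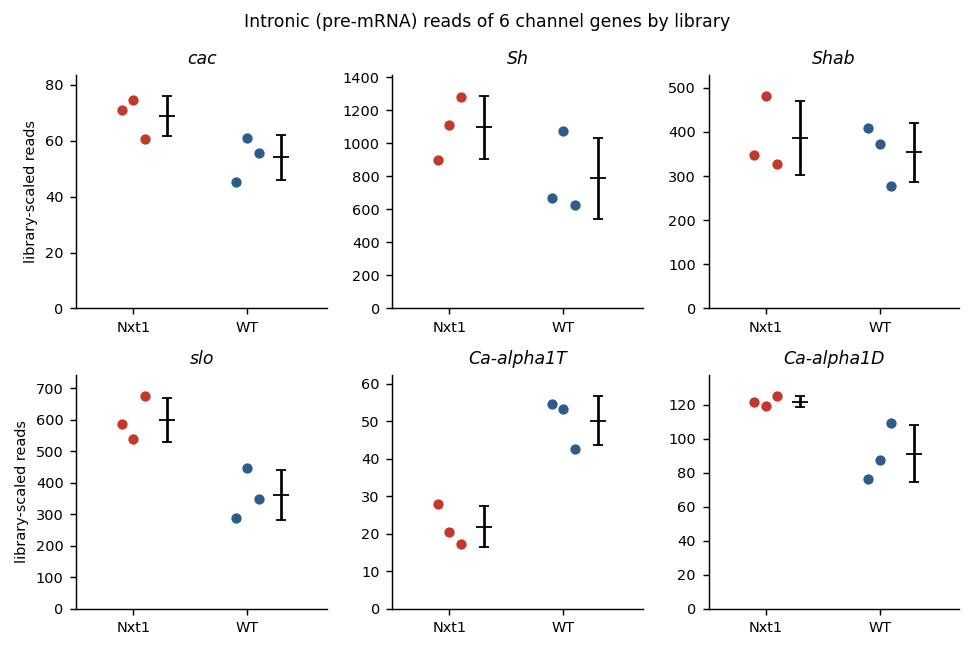
Intronic library-scaled reads (y axis, from 0, scaled by gene) of the 6 channel genes with finite pre-mRNA values, in 3 Nxt1 libraries (red) and 3 WT libraries (blue), with the mean and SD beside the points. The slo values lie at 538 to 674.5 in Nxt1, above 288 to 445 in WT, and those of Ca-alpha1T at 17.3 to 28.0 in Nxt1, below 42.6 to 54.7 in WT.

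The intronic values of slo were 586, 538 and 674.5 library-scaled reads in Nxt1 and 288, 445 and 349 in WT. All 3 Nxt1 libraries were above all WT libraries, with means of 599.6 ± 69.2 in Nxt1 and 361 ± 79.1 in WT (SD, n = 3 each). This was a log2 fold of 0.75 (SE 0.185, adjusted p = 0.0447 by limma, exact permutation p = 0.1). This call was close to the threshold: it was kept in 8 of 19 alternatives, with adjusted p from 0.0198 to 0.156 over all of them, and was lost without Nxt1 replicate 1, 2 or 3 or WT replicate 1. The log2 fold stayed between 0.60 and 0.91 throughout.

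Ca-alpha1T had 15, 21 and 18 intronic reads in Nxt1 and 70, 67 and 46 in WT. After scaling these were 28.0, 20.4 and 17.3 in Nxt1 and 54.7, 53.1 and 42.6 in WT, again with all Nxt1 values below all WT values. The difference was -1.18 on the log2 scale (SE 0.249, adjusted p = 0.0254 by limma, exact permutation p = 0.1). The call was kept in 12 of 18 alternatives, with adjusted p from 0.00735 to 0.121, and lost without Nxt1 replicate 2 or 3 or WT replicate 1 or 2. With lengths put back in order and 1 FPKM added, the log2 fold was -0.27 and missed the threshold.

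Sh had the most intronic reads of the 6 genes, at 900, 1111 and 1282 library-scaled reads in Nxt1 and 670, 1072 and 627 in WT. The groups overlapped through WT replicate 2 (log2 fold 0.50, 95% confidence interval -0.01 to 1.02, limma adjusted p = 0.216). Ca-alpha1D was at 121, 119 and 125 in Nxt1 and at 76.5, 87.3 and 109 in WT. These groups did not overlap, but the log2 fold of 0.43 missed the threshold (limma adjusted p = 0.176) and passed without WT replicate 3 (0.57, limma adjusted p = 0.0492). The cac gene was at 70.9, 74.7 and 60.6 in Nxt1 and at 45.3, 61.1 and 55.6 in WT, with overlapping groups (log2 fold 0.35, limma adjusted p = 0.320). Shab ranged from 327 to 482 in Nxt1 and from 278 to 409 in WT, and its log2 fold of 0.12 had a 95% confidence interval of -0.34 to 0.59. Groups not overlapping with Nxt1 above were found in 2 of 6 genes (slo and Ca-alpha1D), against 16.3% of all genes tested, and with Nxt1 below in Ca-alpha1T, against 13.5%.

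**Figure D3:**
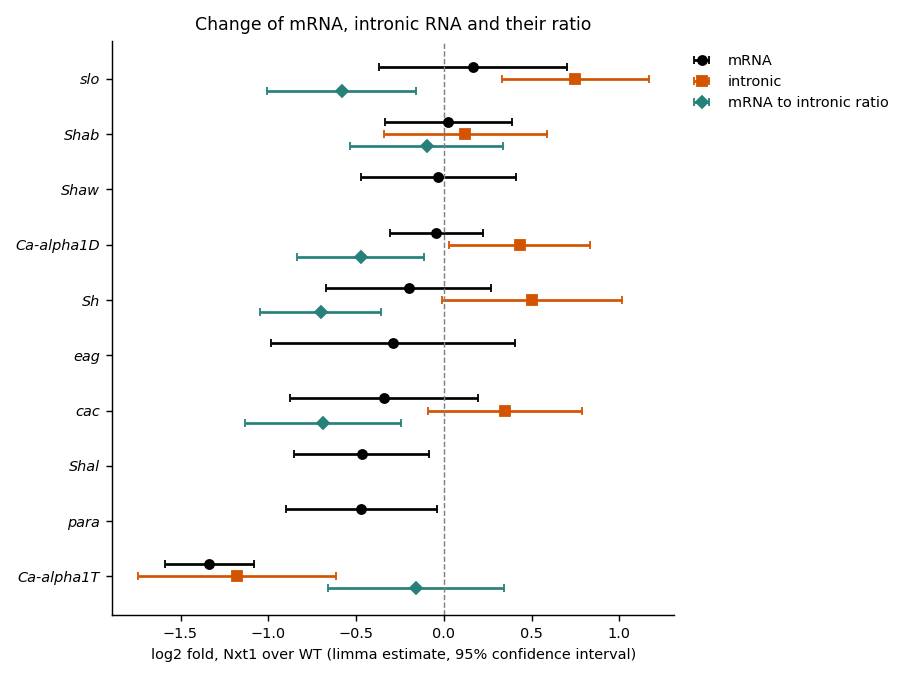
log2 folds of Nxt1 over WT (x axis, limma estimate with its 95% confidence interval) for mRNA (black circles), intronic RNA (orange squares) and the ratio of mRNA to intronic RNA (green diamonds) of each channel gene, ordered by the mRNA fold. In cac, Sh, Ca-alpha1D and slo the intronic fold lies above the mRNA fold and the interval of the ratio lies below 0, while in Ca-alpha1T both folds lie below -1.

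The ratio of mRNA to intronic reads within each library shows whether the 2 changes of a gene differ. It was lower in Nxt1 in each of the 6 genes on average, yet 0 of 6 were called by limma, against 1.99% of the 2465 genes tested, and no other tool was run for the ratio. At an unadjusted p under 0.05, 4 of the 6 genes had a lower ratio (Sh, cac, slo and Ca-alpha1D), against 10.7% of all genes tested. In the same 4 genes the groups did not overlap, with Nxt1 below, against 14.2% of all genes tested. The median log2 fold of the ratio was -0.53 over the 6 genes and -0.0032 over all genes tested.

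In Sh, the ratio was 1.15, 1.08 and 1.11 in the Nxt1 libraries and 2.18, 1.59 and 1.71 in the WT libraries. Intronic reads of Sh thus nearly equalled its mRNA reads in Nxt1 carcasses, but over 126760 intronic against 12181 exonic bases. The ratio is therefore no measure of the share of unspliced RNA. The log2 fold in the ratio was -0.70 (SE 0.147, limma adjusted p = 0.0668). Of the alternatives, 3 of 17 called it: 5 added to the reads (limma adjusted p = 0.0474), a filter of a mean of at least 50 reads (0.0201) and equal totals (0.0174). For cac the ratio was 1.14, 1.78 and 1.54 in Nxt1 and 2.53, 2.52 and 2.06 in WT. That was a log2 fold of -0.69 (SE 0.188, limma adjusted p = 0.103), called with the filter of 50 reads (0.0404) and with equal totals (0.0264). With equal totals all genes shifted by -0.26. Relative to that shift Sh was at -0.70 and cac at -0.68, near their values in the main fit.

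For slo the ratio was 2.29, 2.78 and 3.14 in Nxt1 and 4.81, 4.16 and 3.36 in WT, so the nearest libraries of the groups were close. This gave a log2 fold of -0.58 (SE 0.180, limma adjusted p = 0.124). For Ca-alpha1D the ratio was 10.2, 12.1 and 12.6 in Nxt1 and 18.5, 15.7 and 14.3 in WT, a log2 fold of -0.47 (SE 0.153, limma adjusted p = 0.136). In both genes the mRNA lay near its WT level while the intronic value was higher. With equal totals both ratios were called as lower (adjusted p = 0.0309 for slo and 0.0299 for Ca-alpha1D), although all genes shifted by -0.26 in that setting and the values relative to that shift, -0.58 and -0.47, were as before.

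In Ca-alpha1T both mRNA and intronic RNA fell. Whether its ratio differs from that of the other genes was not tested. Its ratio was 4.75, 6.20 and 7.90 in Nxt1 and 6.80, 5.86 and 8.10 in WT. The groups overlapped, with a log2 fold of -0.16 and a 95% confidence interval of -0.66 to 0.34 (limma adjusted p = 0.704), and the sign turned without Nxt1 replicate 1 (0.029). Shab also had overlapping ratios, from 1.72 to 2.77 in Nxt1 and from 2.13 to 2.45 in WT, with a log2 fold of -0.10 and an interval of -0.53 to 0.34. Its sign turned without Nxt1 replicate 2 (0.066).

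**Figure D4:**
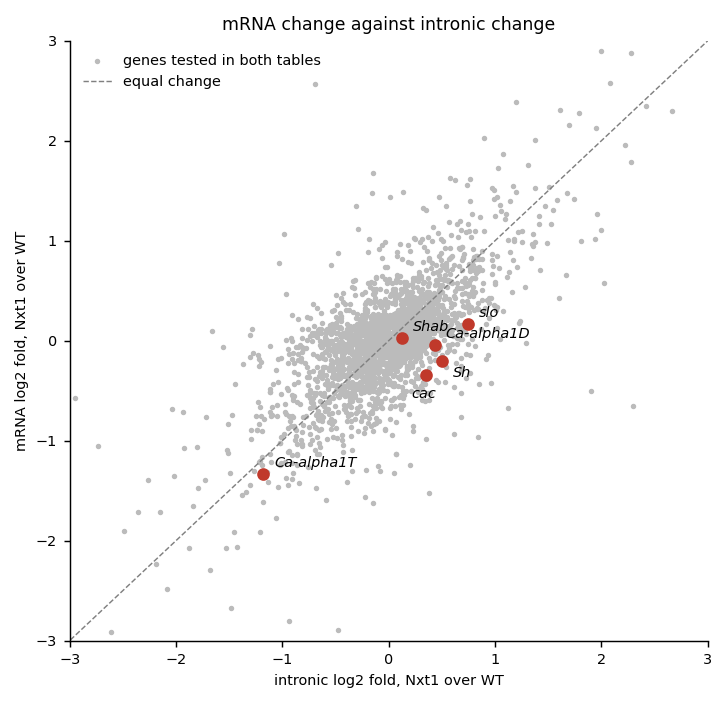
mRNA log2 fold (y axis) against intronic log2 fold (x axis), Nxt1 over WT, for the 2465 genes tested in both tables (grey) and the 6 channel genes (red). The dashed line marks equal change, and 6 genes lie outside the axes. Ca-alpha1T lies near the line at the lower left, Shab near the centre, and slo, Ca-alpha1D, Sh and cac below the line on the side of higher intronic RNA.

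The label of long introns fits the 10 genes unequally. With RefSeq gene spans of the Release 6 assembly, which the files do not name as their build, the spans ran from 10961 bases for Shaw to 138941 bases for Sh. Total intron lengths, known for 8 genes, were 126760 bases in Sh, 75488 in Ca-alpha1T, 62492 in para, 45010 in eag and 40251 in slo, but 15285 in Ca-alpha1D, 13621 in Shal and 6404 in Shaw. The ratio of mRNA to intronic reads was lower in Nxt1 in 281 of the 429 tested genes with at least 20 kb of intron, and in 1241 of the 2465 genes tested. The median log2 fold of the ratio was -0.14 in the first group, the same sign as the -0.53 of the 6 channel genes, of which Sh, slo and Ca-alpha1T belong to it. By total intron length, Sh with 126760 bases was at -0.70, Ca-alpha1T with 75488 at -0.16, slo with 40251 at -0.58 and Ca-alpha1D with 15285 at -0.47. The intron lengths of cac and Shab are not known, and a link of length with the ratio was not tested in these genes. Lengths of single introns were not measured. The medians of the first group were -0.10 for mRNA (641 genes) and 0.05 for pre-mRNA (444 genes).

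Other RefSeq genes lie within the spans of some channel genes, and whether their reads were counted as intronic is not stated. Sh holds CG12672, CG6867 and CG15373, of which CG6867 had 220, 449 and 405 mRNA reads in Nxt1 and 412, 284 and 609 in WT. CG12672 had 35, 87 and 90 in Nxt1 and 75, 118 and 49 in WT. The part of these genes in the Sh values was not tested. The genes slo, Ca-alpha1T, cac, eag, Shal and Shaw hold 0 other RefSeq genes, and Ca-alpha1D holds an antisense RNA gene. The 2 genes inside Shab had at most 2 reads in a library, and the gene inside para at most 11.

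Circular RNA rows were found for 3 of the 10 genes, and no test was made, since each circle carries 2 libraries of a genotype. A circle made of exon 12 of Sh alone was listed in both genotypes. It had 9 and 14 back-splice reads in the Nxt1 libraries and 22 and 17 in the WT libraries. Scaled by the authors per library, the values were 114 and 196 in Nxt1 and 279 and 184 in WT, so the groups overlapped. The ratio of summed reads per library total, Nxt1 over WT, was 0.671, with an exact 95% interval of 0.383 to 1.15 that covers counting error only. On the authors' scaled means the ratio was 0.669, where the median over the 335 circles listed in both genotypes was 0.836 and 57.6% of these circles were lower in Nxt1. By the authors' scaled mean the Sh circle ranked 337 of 467 in Nxt1 and 336 of 597 in WT. A circle of Ca-alpha1T from exon 8 to exon 16, with 1 and 1 reads, and a circle of eag from exon 13 to exon 15, with 1 and 2 reads, were listed for WT and not for Nxt1. At that depth a difference between the genotypes was not detectable.

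Among 15 tested other pore genes of voltage-gated and related channels, 2 rose and 2 fell in mRNA, with a median log2 fold of 0.05. That is 4 of 15 called, beside the 21.4% of all genes tested. SK, a calcium-activated potassium channel of small conductance, fell to 0.507 of WT, with 224 ± 47.8 library-scaled reads in Nxt1 and 439 ± 50.8 in WT (SD, n = 3 each, limma adjusted p = 0.0129). SLO2, a relative of slo, fell to 0.530 of WT, with 32.2 ± 0.891 in Nxt1 and 61.7 ± 2.85 in WT (limma adjusted p = 0.0118). KCNQ, pore of a slow potassium current, rose to 1.75 of WT (limma adjusted p = 0.0390), and Ih, pore of the current activated by hyperpolarization, to 1.51 of WT (0.0444). The calls of KCNQ and Ih were each kept without 1 of the 6 libraries, WT replicate 2, and those of SK and SLO2 without 4 and 5. Ih also missed the threshold in edgeR (adjusted p = 0.0647). SK lost its call without Nxt1 replicate 1 or WT replicate 1, and SLO2 without WT replicate 1. In intronic RNA KCNQ rose as well, with a log2 fold of 0.69 (limma adjusted p = 0.0499) that missed the threshold in edgeR (0.0577) and was lost without any library but WT replicate 3. Its ratio, with a log2 fold of 0.12, was not called (limma adjusted p = 0.686).

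Among 17 tested auxiliary subunits and regulators, 2 rose and 2 fell, or 4 of 17 called, again beside 21.4% of all genes tested. Of the 17 folds 2 were above 0, against 49.7% of the folds of all genes tested, and the median was -0.41. The largest change was that of stj, an alpha2delta subunit of calcium channels, at 186, 185 and 207 library-scaled reads in Nxt1 and 35.4, 43.8 and 48.5 in WT. All Nxt1 libraries were far above the WT libraries, 4.48-fold on average (limma adjusted p = 0.00104), and the call was kept in all 18 alternatives. The calcium sensor gene Cam rose by 0.68 on the log2 scale (limma adjusted p = 0.00752), a call kept without each library in turn. Teh4, a relative of the sodium channel subunit gene tipE, fell to 0.390 of WT (limma adjusted p = 0.0227), and qvr, a regulator of the Sh channel, to 0.709 (0.0288). The calls of Teh4 and qvr were kept without 2 and 1 of the 6 libraries. Teh4 lost its call without Nxt1 replicate 1, 2 or 3 or WT replicate 1, and qvr without each library but WT replicate 3. In DESeq2 qvr missed the threshold (adjusted p = 0.0542) and Dpp10 passed it (0.0250, against 0.1003 by limma), a gene named after its value was seen.

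Markers of cell types moved beside the channel genes. Their counts are to be set beside the 12.0% of all genes tested that rose and the 9.44% that fell. Of the markers of muscle and epidermis, the labelled tissue, 0 were absent from all libraries. Of 18 muscle markers 7 rose and 0 fell (median log2 fold 0.80), and their summed level was 2762000 to 3522000 library-scaled reads in Nxt1 and 1083000 to 2302000 in WT. The muscle rises were 2 to 4 without any 1 library except WT replicate 3, and without that library 14 rose and 1 fell (Mef2). Quantile normalization gave 2 rises and a median of 0.20, and equal totals 4 rises and 1 fall (Strn-Mlck) with a median of 0.43, which is 0.80 relative to all genes. The part of muscle content in the channel values was not tested. Of 9 tested epidermis markers 1 rose, Ddc, which edgeR did not call, and 0 fell, with summed levels of 122300 to 162000 in Nxt1 and 83150 to 172600 in WT. The marker e alone ranged from 2250 to 35260 in Nxt1 and from 2918 to 80910 in WT, so its spread weighs on that sum.

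Of 19 neuron markers 2 rose (Syx1A and unc-13) and 4 fell (nSyb, Rab3, Appl and Syn), genes named after their values were seen. Over all genes tested, 12.0% rose and 9.44% fell, so 2 rises in 19 are near the background. The median log2 fold was -0.49 and 16 of 19 folds were below 0. The summed level of the neuron markers was 7979 to 8887 library-scaled reads in Nxt1 and 7523 to 7897 in WT, and 0 of the 19 were absent from all libraries. The 2 that rose make up much of that sum, with means of 2894 in Nxt1 and 1855 in WT for Syx1A, and of 2208 in Nxt1 and 1615 in WT for unc-13. Summed without them, a split made after the values were seen, the other 17 markers were at 2912 to 3528 in Nxt1 and 4164 to 4329 in WT. Leaving out the markers that rose tilts this sum toward a fall, so no test is given for it. The part of neuron content in the values of Ca-alpha1T, para, cac, Shal and eag was not tested. For glia 0 of 10 rose and 1 fell, repo, with summed levels of 33550 to 39040 in Nxt1 and 27160 to 42990 in WT. A fall of 1 in 10 is near the background. Gs2 makes up much of that sum, with means of 21070 in Nxt1 and 22160 in WT. The means of repo were 76.8 in Nxt1 and 136 in WT, so the sum says little about it.

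Over all genes tested, 12.0% rose and 9.44% fell. Of the markers of other tissues, 4 of 9 for fat body rose (Lsp1alpha, Lsp1beta, Fbp2 and apolpp) and 0 fell. Of 11 for hemocytes 4 rose (PPO1, PPO2, He and Sr-CI) and 2 fell (NimC1 and PPO3), of 9 for salivary gland 7 rose and 0 fell, and of 5 for trachea 0 changed. The salivary gland rises were 4 with edgeR and 7 with DESeq2, and 2 to 8 without 1 library. At an unadjusted p under 0.05, and with edgeR and DESeq2, 0 muscle, epidermis, fat body and salivary gland markers fell as well, while 1 trachea marker rose and 2 fell at the unadjusted p and DESeq2 called 1 rise. For glia, 2 rose at the unadjusted p, 0 with edgeR and 1 with DESeq2. Summed levels were 183200 to 259000 in Nxt1 and 94040 to 113600 in WT for fat body. For hemocytes they were 35360 to 49580 in Nxt1 and 21730 to 28160 in WT, and for salivary gland 11060 to 22990 in Nxt1 and 4715 to 9134 in WT. Their part in the channel values was not tested.

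Over the 6 M libraries, the genes whose mRNA pattern was most like that of Ca-alpha1T, by Pearson's r of log2 library-scaled reads among all genes tested, were CG5080 (r = 0.999), Cog4 (0.998), RfC3 (0.997) and Cyfip (0.996). These points share their libraries, and Ca-alpha1T was the member chosen for its fall, so the likeness is a description. The log2 fold was -1.40 for CG5080, close to the -1.34 of Ca-alpha1T, and smaller for Cog4 (-0.50), RfC3 (-0.63) and Cyfip (-0.37).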

How the data were processed

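The authors deposited FPKM for mRNA and pre-mRNA, per the labels. Per the submitters' processing notes, featureCounts 1.6.2, STAR 2.5.3a, Trimmomatic 0.36, DESeq2 and Subread were used, in roles they do not state. For the genome build, the annotation and the circular RNA caller: not given in the sources used here. For circular RNA the authors deposited raw back-splice counts and a score scaled per library, per the file headers.

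Feature lengths in the deposited FPKM are out of order between genes: in mRNA the length implied by a row correlated with its gene's RefSeq span at a Spearman rho of 0.0285, and at 0.926 with that of the gene found at this rank once IDs are sorted. FPKM of a gene divide into whole-number ratios, so reads were recovered, whole within 0.01 in 15293 of 15293 mRNA and 4543 of 4543 pre-mRNA genes, 294 and 88 of them after multiplication by a shared factor. Implied intron and exon lengths, once in order, sum to the gene span in 2944 of 4520 genes, which is why pre-mRNA is read as intronic. Of 17492 IDs, 17371 matched a symbol, and Ca-beta and dys matched none.

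limma 3.58.1 in R 4.3.3 (eBayes with trend, 2-sided) was fitted on log2(library-scaled reads + 1) of all genes with a mean of at least 10 reads, genotype as the term, with Benjamini-Hochberg adjusted p under 0.05. The ratio is the difference of both log2 values within a library. Ratios printed per library are of these values. edgeR 4.0.16 and DESeq2 1.42.0 on recovered reads, other scalings, pseudocounts and filters, and leaving out each library were alternatives. The mRNA and pre-mRNA fits, but not the ratio, were tried on simulated reads with the same dispersion in every library. Of simulated 1.5-fold changes, 20.4% were called in mRNA and 28.6% in pre-mRNA. Of 2-fold changes, 89.0% were called in mRNA and 72.7% in pre-mRNA. A gene not called may thus still have a change of 1.5-fold. Fold confidence intervals are limma's, at 95%.

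The 10 genes, the lists of channel genes and markers and the naming rule were chosen with earlier results of these data known. The rule names all 10 genes, list genes past the threshold, and the 4 genes most like the strongest rise and fall. No 2 libraries were duplicates.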

Additional observations from a re-analysis of the deposited data

How the results depend on the processing

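Of 18 mRNA alternatives, 2 changed the count of 1 channel gene called: equal totals called 6 (Sh, Ca-alpha1D, cac, Ca-alpha1T, para and Shal), and leaving out 1 library gave 1 to 2. Equal totals move the median of all genes to -0.37, with 638 rises and 4841 falls against 1248 and 986, so that the log2 folds of Shab (-0.35) and slo (-0.21) turned there, although relative to that median they were 0.03 and 0.17. With edgeR Shab was at -0.030. Without 1 library, mRNA log2 folds ranged from -0.14 to 0.12 for Shaw, -0.12 to 0.055 for Ca-alpha1D, -0.12 to 0.12 for Shab and -0.026 to 0.35 for slo.

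The 2 intronic calls became 1 with deposited FPKM + 1, equal totals, quantile normalization, mRNA library factors and no trend (1 each, Ca-alpha1T). With a mean of at least 50 reads 1 was left, slo, of 5 genes tested, since Ca-alpha1T did not pass that filter. The calls became 0 with lengths in order + 1, where 4 genes could be tested, and 0 to 3 without 1 library. Shab was at -0.0010 with equal totals and at -0.049 to 0.24 without 1 library. The ratio count of 0 became 1 with a pseudocount of 5, 2 with at least 50 reads and 4 with equal totals, and stayed 0 without each library. Without 1 library the ratio of Ca-alpha1T ranged from -0.34 to 0.029 and that of Shab from -0.28 to 0.066. The cause of these changes was not tested.

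Over all genes, calls were 906 to 3056 without 1 library for mRNA (2234 with all), 54 to 401 for pre-mRNA (196) and 1 to 23 for the ratio (49), highest without WT replicate 3. Equal totals gave 5479 for mRNA and 335 for the ratio. Pre-mRNA calls were 115 with deposited FPKM + 1, 79 with lengths in order and 91 without trend. Ratio calls were 81 with a pseudocount of 5, 17 with no filter, 148 with at least 50 reads, 23 with mRNA factors and 29 without trend. No pairing of libraries by replicate number was seen in mRNA: deviations of same-numbered libraries correlated at -0.02, -0.09 and -0.19. There 0 of 3 Nxt1 libraries correlated best with the WT library of their number, and in the ratio 1 did. With 3 libraries for each genotype these values cannot exclude a pairing. With a replicate block 1 channel gene was called in mRNA, 0 in pre-mRNA and 0 in the ratio, and 737, 53 and 0 of all genes. Depth limits eag, the circles and the intronic reads of Ca-alpha1T.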
